A study of Oryza sativa with 45 samples.

Results

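Tonoplast intrinsic proteins (TIPs) are the aquaporins of the vacuolar membrane, and their transcripts were followed here through 15 conditions of rice lines, generations and salt. The members were the probe sets of the array whose single annotated gene carries a TIP name in the rice reference table. Of 10 TIP names sought, 9 were found in the reference table and 8 had a probe set, among 23837 genes with a probe set of their own and 54922 probe sets in all. The 8 genes measured were OsTIP1;1 (LOC4331608), OsTIP1;2 (LOC4324303), OsTIP2;1 (LOC4330207), OsTIP2;2 (LOC4340941), OsTIP3;1 (LOC4348981), OsTIP3;2 (LOC4336464), OsTIP4;1 (LOC4338163) and OsTIP4;2 (LOC4324277), each with 1 probe set. OsTIP4;3 and OsTIP5;1 were not analysed here.

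Aquaporins are channel proteins that let water cross membranes along an osmotic gradient. The TIP family sits in the tonoplast, the membrane around the large central vacuole of plant cells, where it lets the vacuole take up or release water quickly and so buffers the cytoplasm when the water supply or the salt around the root changes. Several TIPs also pass small neutral solutes such as glycerol, urea and ammonia. The subfamilies are commonly told apart by where they occur: TIP1 and TIP2 are the abundant isoforms of vegetative tissue, TIP3 proteins belong to the protein storage vacuoles of seeds, and TIP4 and TIP5 genes have narrower expression.

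The 45 arrays each measured RNA of 1 pool of 10 whole seedlings, 15 days old, of the Nipponbare japonica cultivar, with 3 pools in every condition. Line Ta carries 1 copy of OsICE1 fused to a TAP tag behind the maize ubiquitin promoter and a hygromycin resistance gene, and was made with Agrobacterium. Line NSb is a negative segregant from another transformation event (Tb, OsICE1 behind the same promoter with no tag) that has lost its transgene, so both Ta and NSb descend from cells that passed through in vitro culture. Line C is the seed-derived control. Each line was followed without salt in generations F4, F6 and F8. In F6, seedlings of the 3 lines were also grown for 12 days in medium made saline to 12 dS/m. In F8, 3 further groups descended from F6 plants that had met salt, and these are called salt history. Ta and NSb stand for 1 event each, so a difference between lines is a difference between these descents, and p-values measure the spread between pools.

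The values are log2 RMA signals. Array medians lay between 4.46 and 4.50 in F4, 4.14 and 4.22 in F6, and 4.53 and 4.58 in F8, so levels were compared only within a generation. Arrays of 1 condition correlated with each other at 0.975 to 0.991 over all probe sets. Replicate 3 of unsalted C in F6 had a median of 4.21, against 4.14 in each of the other 2 pools of its group and 4.19 to 4.22 in the salt arrays. The probe set annotated to ICE1 lay at 8.82 to 9.63 in the 15 Ta pools, against 4.74 to 6.30 in the NSb pools and 4.37 to 5.93 in the C pools. Of 6 genes taken as a check on the salt treatment, 5 were higher under salt in the mean of the 3 lines (limma, adjusted p under 0.05). Of all probe sets, 15.2% were higher at that threshold. Among the 5, RAB21 rose by 3.25 log2 units and salT by 1.91. In Ta alone 4 of the 6 passed, where 6.26% of all probe sets were higher. RAB16D changed least in the mean, at 3.91 to 4.25 in the 9 salt pools against 3.69 to 4.07 in the 9 F6 pools without salt. The 7 seed genes measured, glutelins and the oleosin OLE18, averaged 1.90 to 2.36 on every array, well below the array medians. In contrast, 5 leaf genes averaged 7.34 to 7.83 and 3 root genes 7.04 to 9.04. On average, the leaf and root lists lay above the array medians and the seed list below them. Among the root genes, OsNRT2.1 had condition means down to 2.98. Probe sets differ in affinity, so these averages do not compare amounts of RNA between the lists. Whole seedlings were pooled, so fewer cells of a type and less RNA per cell cannot be told apart.

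The TIP genes fell into 5 that lay above the array median on 45 of 45 arrays, namely both TIP1 genes, both TIP2 genes and OsTIP4;1, and 3 that lay below it on all 45, namely both TIP3 genes and OsTIP4;2. Condition means of OsTIP2;2 ran from 8.19 to 10.02 and placed its probe set at the 96.2 to 98.9 percentile of all probe sets. OsTIP1;1 ran from 8.10 to 9.23, at the 95.04 to 98.05 percentile. OsTIP1;2 ran from 6.14 to 8.43 (percentile 75.1 to 97.0), OsTIP2;1 from 5.25 to 7.53 (68.3 to 93.4) and OsTIP4;1 from 4.83 to 6.50 (62.0 to 79.6). The seed isoforms OsTIP3;1 (2.90 to 3.33) and OsTIP3;2 (2.58 to 2.94) and the gene OsTIP4;2 (2.31 to 3.59) stayed within the lowest part of the scale. A fall or a small rise of these genes would have been hard to detect there. A large rise was seen from that level in the salt check gene RAB21, whose F6 means in C were 2.34 without salt and 5.83 with salt. Probe sets differ in their affinity, so the levels of the TIP genes order conditions for 1 gene and not the genes among themselves. They order only the conditions of 1 generation, whereas the ranges above span all 3 generations, which may differ in scale.

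**Figure D1:**
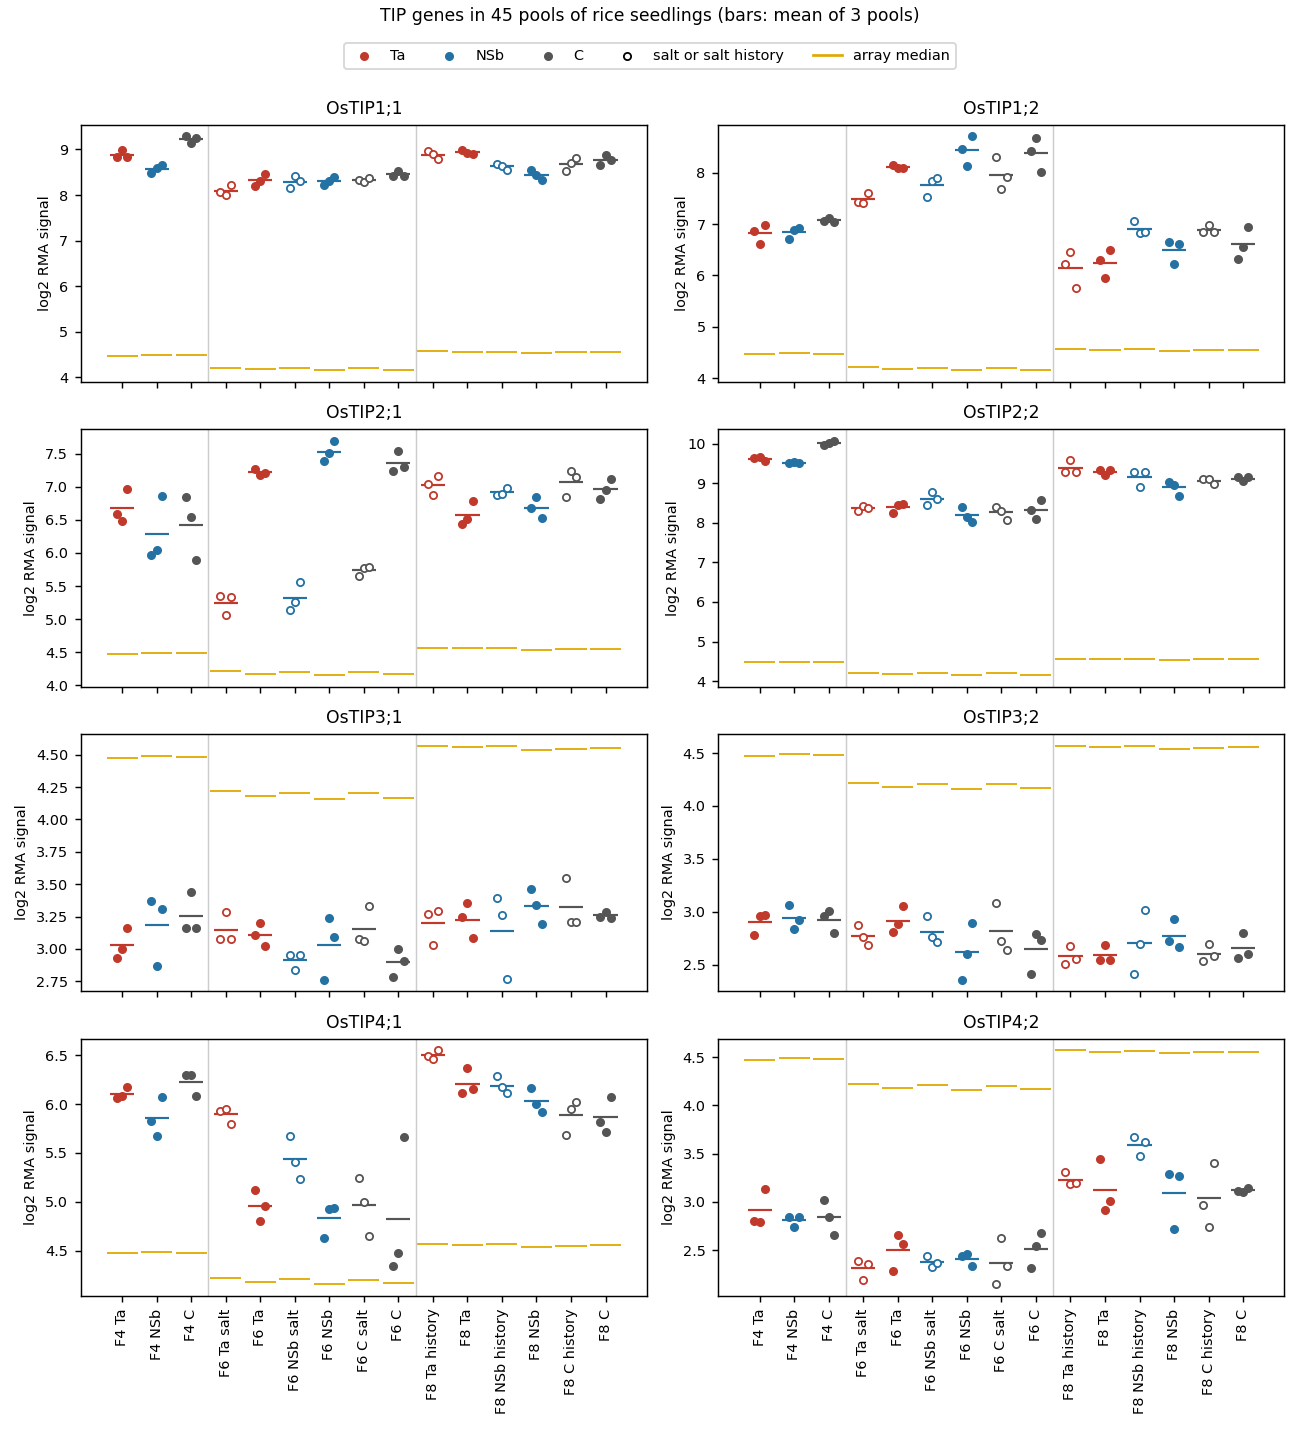
Each panel shows the log2 RMA signal of 1 TIP gene (vertical axis) in the 3 pools of each of 15 conditions (horizontal axis), with the line given by colour, salt or salt history by open points, the mean of 3 pools by a bar in the colour of the line and the mean array median of the condition by a yellow bar. In F6, the salt pools of OsTIP2;1 lie between 5.07 and 5.79, all below the pools without salt at 7.17 to 7.69, whereas both TIP3 genes and the second TIP4 gene stay below the array median everywhere.

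Salinity lowered OsTIP2;1 strongly in all 3 lines. At an adjusted p under 0.05 by limma, OsTIP1;2 was also lower in Ta and NSb, OsTIP4;1 higher in Ta and OsTIP2;2 higher in NSb. No TIP gene passed that threshold for a difference between lines in the salt response. In the mean of the 3 lines, OsTIP1;2 fell and OsTIP4;1 rose past it. The question of this comparison was how far a salt stress alters the transcripts of each line. A gene was called when its limma p, adjusted by Benjamini and Hochberg's method for every probe set of the array, was under 0.05. In Ta 3 of 8 TIP genes were called, 1 higher and 2 lower, where 10.5% of all probe sets were called, 6.26% higher and 4.24% lower. In NSb 3 were called, 1 higher and 2 lower, where 15.4% of all probe sets were, 9.34% higher and 6.09% lower. In C 1 was called, lower, where 9.68% of all probe sets were, 4.54% lower. The median difference over the 8 genes was -0.16, -0.03 and -0.10 log2 units in Ta, NSb and C, beside -0.01, -0.01 and 0.00 over all probe sets.

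OsTIP2;1 is one of the TIP2 isoforms, the group known in other plants for carrying ammonia as well as water. Its signal was 5.35, 5.07 and 5.33 in the Ta salt pools, against 7.27, 7.17 and 7.20 in the Ta pools without salt. In NSb it was 5.14, 5.26 and 5.56 with salt, against 7.39, 7.50 and 7.69 without. In C it was 5.65, 5.78 and 5.79 with salt, against 7.24, 7.53 and 7.29 without. All 9 salt pools lay below all 9 pools without salt. The transcript fell by 1.97 log2 units in Ta (SE 0.12, 3.91-fold, adjusted p = 4.34e-08 in limma), by 2.21 in NSb (SE 0.12, 4.62-fold, adjusted p = 7.75e-09) and by 1.61 in C (SE 0.12, 3.06-fold, adjusted p = 3.34e-07), where it fell by 1.65 without replicate 3 of the unsalted pools. It was the only TIP gene past a 3-fold change, which 0.468% of all probe sets passed together with the adjusted p in Ta, 0.699% in NSb and 0.422% in C. Counted from the most negative of 54922 differences, it stood at rank 17 in Ta, 13 in NSb and 30 in C. The order of the 6 conditions of F6 ran from Ta salt and NSb salt, which overlapped, through C salt to Ta, C and NSb without salt. Without salt, C overlapped both other lines, while every Ta pool lay below every NSb pool.

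OsTIP1;2, a second TIP1 isoform, showed the same direction with more scatter. In Ta its signal was 7.44, 7.40 and 7.59 with salt, against 8.15, 8.08 and 8.10 without. In NSb it was 7.52, 7.84 and 7.89 with salt, against 8.45, 8.14 and 8.71 without. The pools of both lines were separated by salt, and the transcript fell by 0.63 in Ta (SE 0.18, adjusted p = 0.0343) and by 0.68 in NSb (SE 0.18, adjusted p = 0.0174, limma). The call in Ta was lost without any 1 of its 6 pools (adjusted p of 0.0533 to 0.111), and that in NSb without unsalted replicate 3 or salt replicate 1 (0.0907 at most). In C the pools overlapped, with 8.30, 7.68 and 7.91 under salt against 8.42, 8.68 and 8.02 without, and the difference of -0.41 (SE 0.18) had an adjusted p of 0.198. Over the 3 lines the mean fall was 0.58 (SE 0.10, adjusted p = 5.49e-04).

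OsTIP4;1 belongs to the TIP4 group, whose Arabidopsis member is the epsilon TIP. It ran the other way. Its signal was 5.93, 5.95 and 5.79 in the Ta salt pools, against 5.12, 4.80 and 4.96 without salt, a rise of 0.93 (SE 0.26, adjusted p = 0.028), which was lost without any 1 of these 6 pools (adjusted p of 0.0506 to 0.099). In NSb it was 5.67, 5.40 and 5.24 with salt, against 4.63, 4.93 and 4.94 without, so that the groups did not overlap, but the difference of 0.60 (SE 0.26) had an adjusted p of 0.134, which became 0.0236 with all 45 arrays in 1 fit and 0.0303 with only these 2 groups in the fit. In C the salt pools were at 5.25, 5.002 and 4.65, against 4.34, 4.47 and 5.67 without salt, where replicate 3 of the unsalted C group stood far above its companions. The C difference of 0.14 (SE 0.26, adjusted p = 0.849) became 0.56 with an adjusted p of 0.0412 without that pool, which also took the NSb difference (0.60, adjusted p = 0.0107) and OsTIP1;2 in C (-0.59, adjusted p = 0.0476) past the threshold. The mean over the 3 lines rose by 0.56 (SE 0.15, adjusted p = 0.00986).

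OsTIP2;2, the second TIP2 gene, was at 8.44, 8.78 and 8.60 in the NSb salt pools, against 8.39, 8.16 and 8.02 in NSb without salt, a rise of 0.42 (SE 0.13, adjusted p = 0.0452) that 15 of 26 alternative settings took back above the threshold, 11 of them by leaving out 1 array of F6 (adjusted p of 0.0541 to 0.179). In Ta and C its differences were -0.03 and -0.07, each with overlapping pools. OsTIP1;1, the other TIP1 gene, lay between 7.99 and 8.41 in the 9 salt pools, against 8.20 to 8.52 in the 9 pools without salt, and its differences ran from -0.23 in Ta to -0.02 in NSb (smallest adjusted p = 0.152). Its mean difference over the 3 lines was -0.13 (SE 0.05, adjusted p = 0.107), and this was called after median centring (-0.17, adjusted p = 0.0333) and after quantile normalisation (-0.19, adjusted p = 0.0182). The 3 genes at the low end of the scale gave differences from -0.19 to 0.26, none past the threshold.

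**Figure D2:**
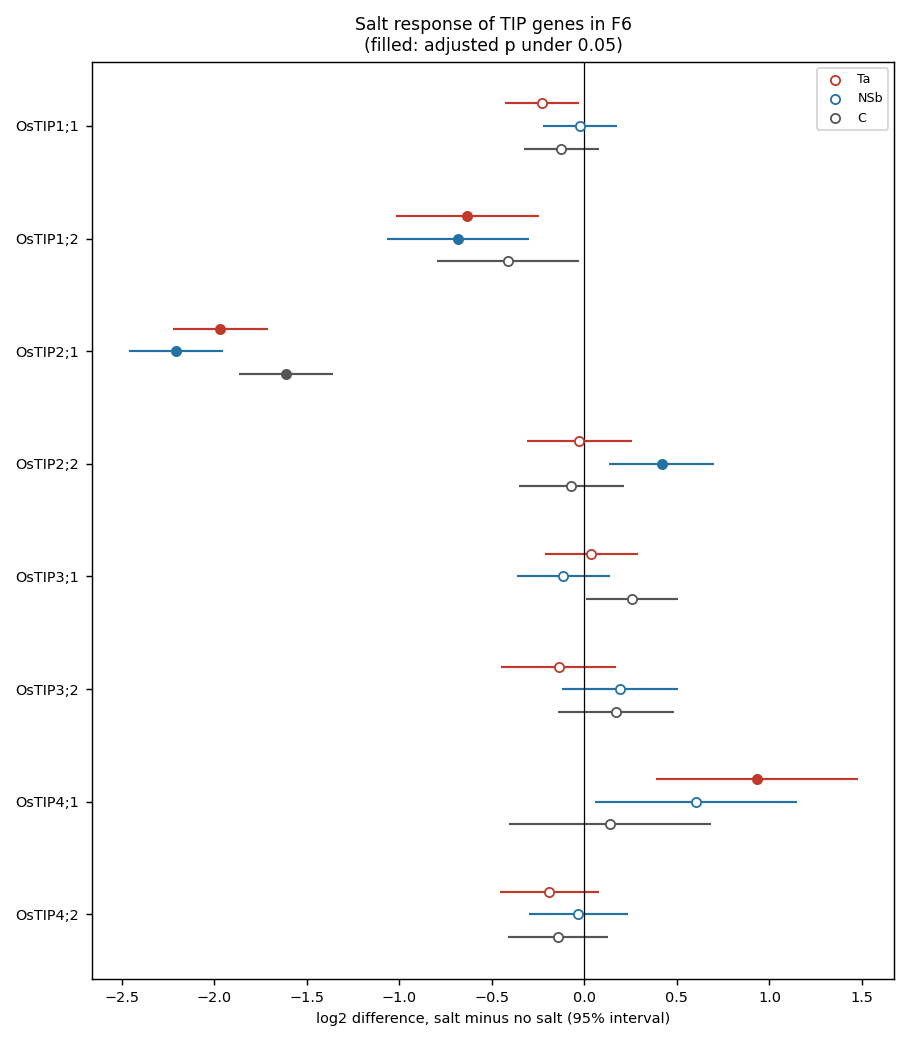
The horizontal axis gives the log2 difference, salt minus no salt, of each TIP gene in F6 with its 95% interval from limma, 1 colour for each line, and filled points had an adjusted p under 0.05. The points of OsTIP2;1 lie between -2.21 and -1.61 in the 3 lines, while those of OsTIP4;1 lie between 0.14 and 0.93 on the other side of 0.

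Whether the lines differed in their salt response was tested as an interaction, and the call was made for 0 of 8 TIP genes in each of the 3 pairs of lines by limma. At an unadjusted p under 0.05 the counts were 1 for Ta against C, 3 for NSb against C and 1 for Ta against NSb. Over all probe sets 0.00364%, 0.00182% and 0% passed. The fall of OsTIP2;1 was larger in NSb than in C by 0.59 log2 units (95% interval -0.95 to -0.23, adjusted p = 0.461) and larger in Ta than in C by 0.35 (-0.71 to 0.01, adjusted p = 0.725). The rise of OsTIP4;1 was 0.79 larger in Ta than in C (0.02 to 1.56, adjusted p = 0.7). That value rests on replicate 3 of unsalted C, at 5.67, without which the rise in C was 0.56 and not 0.14. The intervals of these differences are wide, and equal responses of the lines were not shown.

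Among the salt-grown seedlings alone, again 0 of 8 TIP genes were called between any pair of lines (limma, with 4 at an unadjusted p under 0.05 for Ta against C, 2 for NSb against C and 0 for Ta against NSb). The shares of all probe sets called were 0.395% for Ta against C, 0.0801% for NSb against C and 0.135% for Ta against NSb. OsTIP2;1 was lower in every Ta salt pool than in any C salt pool, with a difference of -0.49 (SE 0.12, adjusted p = 0.0958), and lower in every NSb salt pool than in any C salt pool, with a difference of -0.42 (SE 0.12, adjusted p = 0.498). OsTIP4;1 was higher in every Ta salt pool than in any C salt pool by 0.93 (SE 0.26, adjusted p = 0.146), and this difference passed the threshold (adjusted p = 0.00533) without replicate 3 of unsalted C, a pool of neither group, which enters only through the shared estimate of the spread.

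Cell type markers were read beside the salt result. Lsi1 and Lsi2, silicon transporters of the rice root, lay at 8.94 to 9.26 and 9.43 to 9.66 in the 9 salt pools, against 8.30 to 9.12 and 9.24 to 9.83 in the 9 pools without salt, and their mean differences were 0.30 and 0.06. The third root gene, the nitrate transporter OsNRT2.1, lay at 2.84 to 3.25 under salt, against 6.12 to 6.84 without, and fell by 3.35 in the mean of the 3 lines. As a list, the 3 root genes averaged 7.12 to 7.31 in the salt pools, against 8.03 to 8.49 in those without, and this followed OsNRT2.1. Of 5 leaf genes, 1 passed the threshold in Ta and in NSb, LHCP, lower by 0.40 and 0.29, and 0 in C. Of all probe sets, 10.5% passed it in Ta, 15.4% in NSb and 9.68% in C. The list averaged 7.34 to 7.74 in the salt pools, against 7.52 to 7.80 without. The part of these shifts in the TIP values was not tested.

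The other aquaporins, from a list of plasma membrane (PIP), nodulin 26-like (NIP) and small basic (SIP) genes, gave a setting for the TIP values. Of 11 PIP genes 6 fell in Ta, 6 in NSb and 5 in C, and 0 rose in any line. Of all probe sets, 4.24% were called lower in Ta, 6.09% in NSb and 4.54% in C. The shares called higher were 6.26% in Ta and 9.34% in NSb, and 0 of 11 is near these. In C, 9.68% of all probe sets were called in either direction. The PIP median difference was -0.41, -0.38 and -0.33 in Ta, NSb and C. In the mean of the 3 lines, where 26.9% of all probe sets were called, 15.2% higher and 11.7% lower, 8 PIP genes fell and 1 rose, 2 of 6 NIP genes fell and 1 rose, and 0 of 2 SIP genes were called, beside 2 TIP genes that fell and 1 that rose. OsPIP2;3 fell by 1.53 in that mean (SE 0.07, adjusted p = 3.46e-10), OsPIP2;4 by 1.31 (SE 0.09) and OsPIP2;5 by 1.03 (SE 0.09). These are members of the PIP2 group, which forms the water channels of the plasma membrane. OsNIP2;2, known as the silicon transporter Lsi6, fell by 0.90 (SE 0.09). OsPIP2;7 rose by 0.43 (SE 0.09, adjusted p = 0.00214), as did OsNIP2;1, which is Lsi1, by 0.30 (SE 0.08). The TIP2 gene above thus had the most negative mean difference of the 27 aquaporin genes measured.

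**Figure D3:**
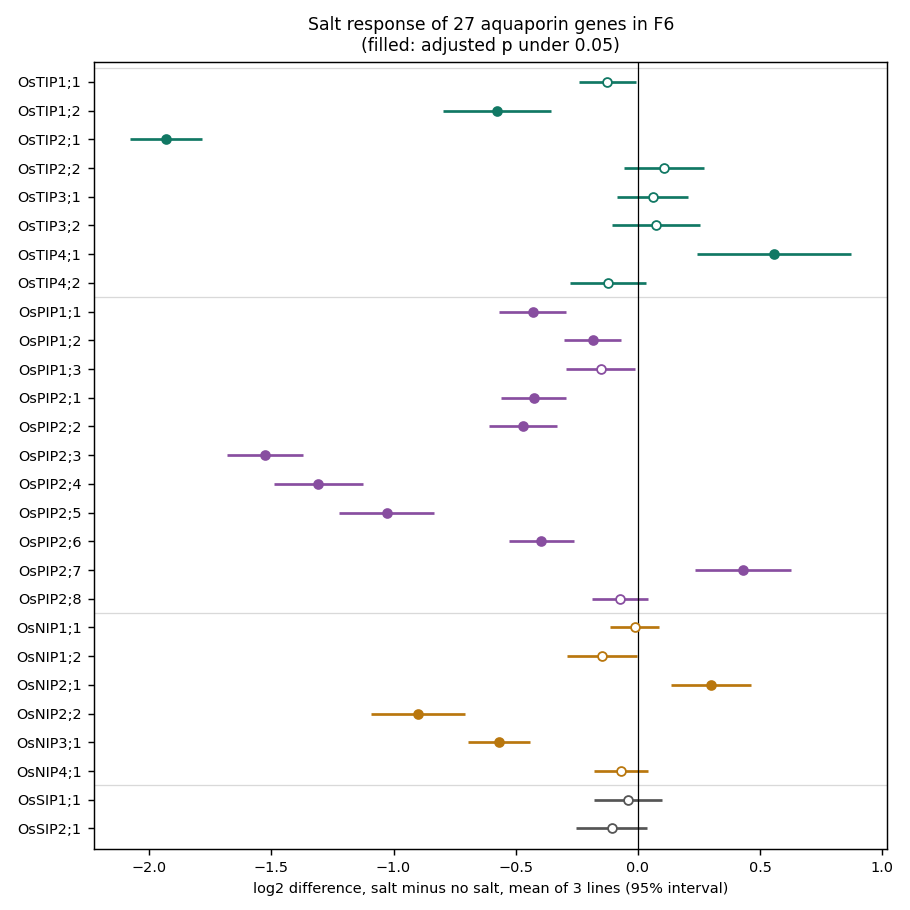
The horizontal axis gives the mean log2 difference, salt minus no salt, over the 3 lines in F6 for 27 aquaporin genes, with 95% intervals from limma, coloured by family (TIP, PIP, NIP, SIP from the top), and filled points had an adjusted p under 0.05. OsTIP2;1 at -1.93 is followed by OsPIP2;3 at -1.53, and the only filled points right of 0 are 1 TIP, 1 PIP and 1 NIP gene.

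Transporters that share the tonoplast with the TIPs moved in both directions. Of 11 probe sets of 10 genes, 3 rose and 4 fell in the mean of the 3 lines, where 15.2% of all probe sets were called higher and 11.7% lower. The potassium channel gene TPKA fell by 0.87 (SE 0.11, adjusted p = 2.18e-05), whereas its relative TPKB rose by 0.47 (SE 0.08, adjusted p = 3.54e-04). The calcium exchanger gene OsCAX1a fell by 0.76 (SE 0.06, adjusted p = 2.1e-07). The median over these probe sets was -0.07, against -0.01 over all probe sets.

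Without salt, OsTIP1;1 and OsTIP2;2 were lower in NSb than in C in F4, and no TIP gene was called between lines in F6 or, without salt history, in F8. This comparison asked how the transgenic line and the negative segregant departed from the seed-derived control over the generations. In F4, 2 of 8 TIP genes were called for NSb against C, both lower, where 1.06% of all probe sets were, 0.448% lower. For Ta against C 0 of 8 were called by limma (3 at an unadjusted p under 0.05), where 0.164% of all probe sets were. For Ta against NSb 0 were called (1 at an unadjusted p under 0.05), against 0.071% of all probe sets.

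OsTIP1;1 was at 8.83, 8.99 and 8.83 in the F4 pools of Ta and at 8.48, 8.58 and 8.66 in those of NSb, against 9.29, 9.15 and 9.24 in C. The 3 lines did not overlap. The difference of NSb from C was -0.65 (SE 0.08, adjusted p = 0.0147), and that of Ta from C was -0.34 (SE 0.08, adjusted p = 0.164). OsTIP2;2 was at 9.64, 9.66 and 9.56 in Ta and at 9.50, 9.53 and 9.51 in NSb, against 9.98, 10.01 and 10.07 in C, in the same order and again without overlap. Its difference from C was -0.50 in NSb (SE 0.07, adjusted p = 0.016) and -0.40 in Ta (SE 0.07, adjusted p = 0.0754). Both NSb calls were lost when only the 2 groups compared entered the fit, and both were lost without replicate 3 of C or without replicate 1 or 2 of NSb (0 calls each). The second gene was also lost without replicate 2 of C or replicate 3 of NSb.

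Root transcripts moved beside these values. In F4, Lsi1 lay at 8.37 to 8.65 in Ta and 8.21 to 8.54 in NSb, against 8.80 to 8.94 in C, and Lsi2 at 9.19 to 9.57 in Ta and 9.14 to 9.33 in NSb, against 9.69 to 9.74 in C. The differences of NSb from C were -0.44 (adjusted p = 0.121) for Lsi1 and -0.45 (adjusted p = 0.104) for Lsi2, while OsNRT2.1 differed by 0.08. The 3 root genes averaged 7.12 to 7.35 in Ta and 7.04 to 7.23 in NSb, against 7.37 to 7.52 in C, and the 5 leaf genes 7.53 to 7.61 in Ta and 7.49 to 7.57 in NSb, against 7.46 to 7.58 in C. The part of the root transcripts in the values of these TIP genes was not tested.

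In F6 without salt, 0 of 8 TIP genes were called in any pair of lines by limma (0 at an unadjusted p under 0.05 for Ta or NSb against C and 1 for Ta against NSb), where 0.0455%, 0.031% and 0.0401% of all probe sets were called for Ta against C, NSb against C and Ta against NSb. The 24 differences ran from -0.32 to 0.29. OsTIP1;1 was at 8.20, 8.31 and 8.47 in Ta and 8.23, 8.30 and 8.41 in NSb, against 8.43, 8.52 and 8.42 in C, so that Ta and C overlapped and NSb lay just below C, by 0.14 on average.

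In F8 without salt history, 0 of 8 were called in any pair by limma (2 at an unadjusted p under 0.05 for Ta against C, 1 for NSb against C and 2 for Ta against NSb), where 0.508%, 0.0419% and 0.319% of all probe sets were called for these pairs in that order. The 8 differences of Ta from C ran from -0.38 for OsTIP2;1, with all Ta pools lower, to 0.34 for OsTIP4;1, with all Ta pools higher. OsTIP1;1 was at 8.99, 8.93 and 8.90 in Ta and 8.54, 8.44 and 8.33 in NSb, against 8.66, 8.88 and 8.77 in C. All Ta pools were above and all NSb pools below the C pools. The difference between Ta and NSb was 0.50 (SE 0.09, adjusted p = 0.0841, under 0.05 with the filter on low values at 0.0417, with trended robust variances at 0.0283 and with all 45 arrays in 1 fit at 8.48e-04), that of Ta from C 0.17 (adjusted p = 0.63) and that of NSb from C -0.33 (adjusted p = 0.613). OsTIP2;2 gave the same order, with 9.33, 9.21 and 9.33 in Ta and 9.04, 8.95 and 8.69 in NSb, against 9.15, 9.05 and 9.16 in C, and a difference of 0.39 between Ta and NSb (SE 0.11, adjusted p = 0.243). Beside these, OsNRT2.1 was higher in Ta than in NSb by 1.36 (SE 0.19, adjusted p = 0.0234) and Lsi2 lower (-0.47, SE 0.08, adjusted p = 0.0435), and their part in the TIP values was not tested.

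Averaged over F4, F6 and F8, OsTIP1;1 was lower in NSb than in C by 0.38 (difference -0.38, SE 0.05, adjusted p = 1.6e-04) and higher in Ta than in NSb by 0.28 (SE 0.05, adjusted p = 0.00584), with no call for Ta against C (-0.10, adjusted p = 0.432). OsTIP2;2 was lower in NSb than in C by 0.29 (difference -0.29, SE 0.06, adjusted p = 0.0322), a call lost in 12 of the 27 fits that left out 1 array (adjusted p of 0.0502 to 0.0715). With this average, 2 of 8 TIP genes were called for NSb against C, both lower, where 0.563% of all probe sets were, 0.209% lower. For Ta against NSb 1 was called, higher, where 0.843% of all probe sets were, 0.504% higher. For Ta against C 0 were called by limma (1 at an unadjusted p under 0.05), where 1.49% of all probe sets were. Both contrasts of NSb with C and of Ta with NSb rest on the same NSb pools. Over the generations the root gene Lsi1 differed between NSb and C by -0.08 and Lsi2 by -0.13, neither called. Between Ta and NSb, 2 of the 3 root genes were called, OsNRT2.1 higher in Ta by 0.56 (SE 0.10, adjusted p = 0.00469) and Lsi2 lower in Ta (-0.24, SE 0.06, adjusted p = 0.04), and their part in the OsTIP1;1 difference was not tested. Changes of a line difference between F4 and F8 were called for 0 of 8 genes in any pair (limma, with 3, 1 and 0 at an unadjusted p under 0.05 for Ta against C, NSb against C and Ta against NSb), where 0.55%, 0.288% and 0.311% of all probe sets were called for these pairs in that order.

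**Figure D4:**
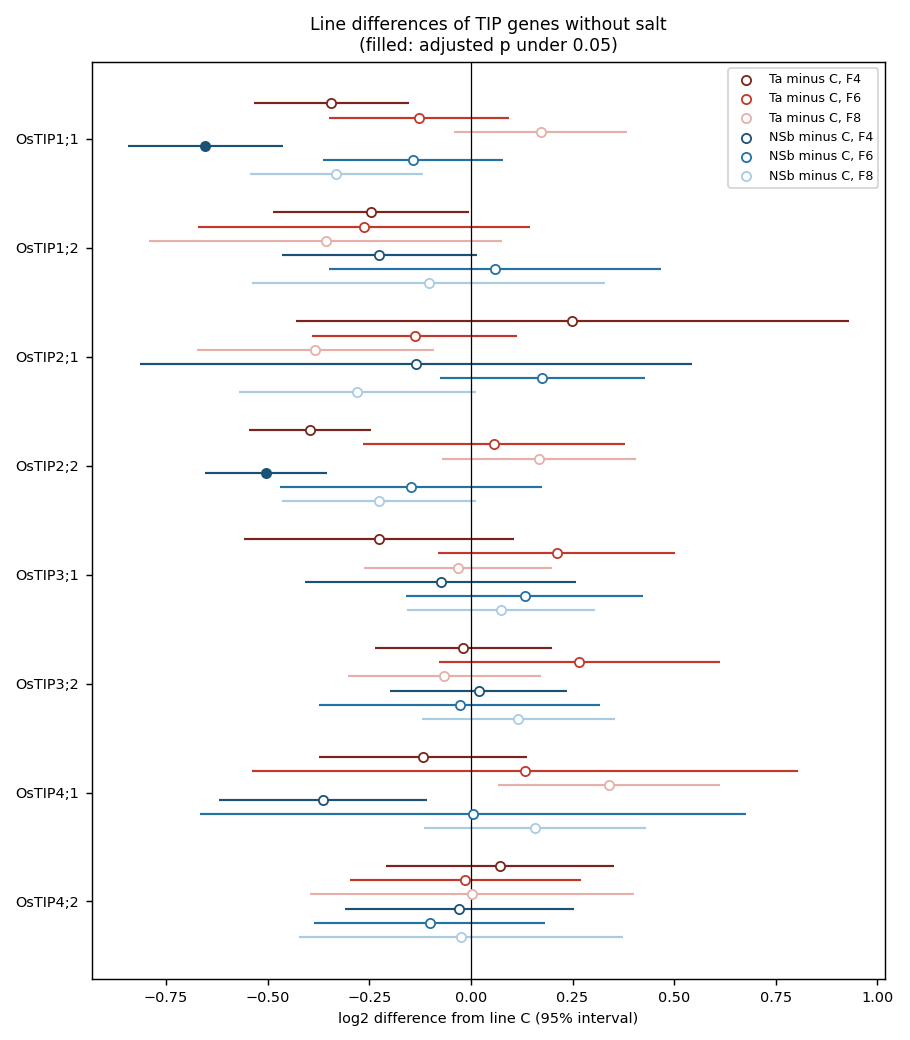
The horizontal axis gives the log2 difference of Ta (red shades) or NSb (blue shades) from C without salt for each TIP gene in F4, F6 and F8, with 95% intervals from limma, and filled points had an adjusted p under 0.05. The only filled points are OsTIP1;1 (-0.65) and OsTIP2;2 (-0.50) of NSb in F4, and the Ta points of both genes lie left of 0 in F4 and right of 0 in F8.

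Seedlings of F8 whose F6 ancestors had met salt were set against those without that history. By limma, 0 of 8 TIP genes were called in any line, with 2, 4 and 0 at an unadjusted p under 0.05 in Ta, NSb and C, where 0.031%, 0.00364% and 0% of all probe sets were called. The salt-lowered OsTIP2;1 was at 7.04, 6.88 and 7.16 in Ta with salt history, against 6.43, 6.51 and 6.79 in Ta without, a difference of 0.45 (SE 0.13, 95% interval 0.18 to 0.72, adjusted p = 0.393) with no overlap. In NSb it was at 6.88, 6.89 and 6.98 with salt history, against 6.68, 6.84 and 6.52 without, a difference of 0.24 (interval -0.03 to 0.50, adjusted p = 0.773), again with no overlap. In C the pools overlapped, at 6.84, 7.24 and 7.15 with salt history against 6.82, 6.95 and 7.11 without. Every Ta pool without salt history lay below every C pool without it, while the Ta pools with salt history overlapped both C groups. None of the 3 differences of OsTIP2;1 between salt history and none was below 0, and no fall like that of F6 was seen in the descendants. The 24 differences of the TIP genes ran from -0.19 to 0.49. The largest was that of OsTIP4;2 in NSb, a gene at the low end of the scale. Its signal there was 3.68, 3.48 and 3.62 with salt history, against 3.29, 2.72 and 3.27 without, with no overlap and no call.

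Between lines with salt history, OsTIP4;1 was higher in Ta than in C. Its signal was 6.49, 6.46 and 6.55 in Ta and 6.28, 6.17 and 6.11 in NSb, against 5.69, 5.95 and 6.02 in C, with no overlap between the lines. The difference of Ta from C was 0.61 (SE 0.11, adjusted p = 0.0142), the 1 call among 8 TIP genes where 0.701% of all probe sets were called, 0.364% higher. It was lost, with 0 calls, without replicate 1 of C or without replicate 1 or 3 of Ta in these groups (adjusted p of 0.0507 to 0.0751), and with all 45 arrays in 1 fit (adjusted p = 0.157). Without salt history the same difference was 0.34 (SE 0.12, adjusted p = 0.383). OsTIP1;2 lay at 6.22, 6.45 and 5.76 in Ta and 7.05, 6.82 and 6.85 in NSb, against 6.85, 6.98 and 6.84 in C, below both other lines in every Ta pool, with differences of -0.75 from C (SE 0.19, adjusted p = 0.0999) and -0.76 from NSb (SE 0.19, adjusted p = 0.125), both called with all 45 arrays in 1 fit (adjusted p of 0.0296 and 0.0338). For NSb against C and Ta against NSb 0 TIP genes were called by limma (2 and 3 at an unadjusted p under 0.05), beside 0.1% and 0.457% of all probe sets. The 3 root genes averaged 8.23 to 9.04 in Ta, against 8.10 to 8.23 in C, which followed OsNRT2.1, at 3.86 to 6.43 in Ta against 3.26 to 3.61 in C. Lsi1 and Lsi2 were lower in every Ta pool than in any C pool, at 10.22 to 10.28 in Ta against 10.32 to 10.33 in C for Lsi1 and at 10.42 to 10.57 in Ta against 10.71 to 10.75 in C for Lsi2. The part of these root genes in the TIP values was not tested.

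The likeness of the patterns was described by Pearson's r over the 15 condition means, after taking out the mean of each generation. The conditions of a generation share a scale, and the salt groups weigh heavily, so r is given without a test. OsTIP1;2 and OsTIP2;1 ran together (r = 0.72), as did OsTIP1;1 and OsTIP2;2 (r = 0.71), while OsTIP4;1 ran against the first pair (r = -0.76 and -0.67). Of 24072 further probe sets with 1 named gene, those most like OsTIP2;1 were LOC4336614 (r = 0.98) and LOC9272389 (r = 0.98). OsTIP1;2 was most like LOC4341612 (r = 0.95) and LOC4347805 (r = 0.95), and OsTIP4;1 most like LOC4331610, which has the synonym CKS1 (r = 0.93), and LOC4333329 (r = 0.93). OsTIP1;1 was most like LOC4341696 (r = 0.91) and LOC4333758 (r = 0.89), and OsTIP2;2 most like LOC4333827 (r = 0.91) and LOC4338976 (r = 0.88).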

How the data were processed

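RNA of whole-seedling pools was hybridised to Affymetrix rice gene arrays. The authors deposited log2 expression values made by RMA (background correction, quantile normalisation and summarisation of probes) in Affymetrix Expression Console; software versions and the genome build behind the probe sets are not given in the sources used here. RMA sets all arrays of a run to 1 distribution, so a shift of all transcripts would not show. Array medians differed between generations, which may have been normalised apart. Microarrays have no read depth, and 3 pools per group limit the precision.

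Of 54922 probe sets, 24080 had 1 gene in the platform annotation, 95 several and 30747 none listed; genes were named by Entrez identifier through the rice reference table (names only). On 4714 probe sets the values equalled those of an earlier one on every array. Groups were taken from the sample labels. limma 3.58.1 in R 4.3.3 fitted the 18 arrays of F6, the 18 of F8, the 9 arrays without salt of each generation, or the 27 of the 3 generations (groups as means, lmFit and eBayes). Called means a Benjamini-Hochberg adjusted p under 0.05 over all probe sets, and a second count asked for a fold of at least 3, the study's cut. No value was filtered or imputed, and the test was checked on simulated arrays.

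The text names every measured TIP, the 2 genes most like each TIP above background, and of the other lists the members with the smallest p in the mean salt response. The members and gene lists were chosen with earlier results of these data known. Replicate numbers did not pair the pools: over 63 same-numbered pairs in 21 comparisons, deviations from group means correlated at -0.16 to 0.25. Alternatives were median centring, quantile normalisation, filters on low values and on SD, trended robust variances, a replicate block, all 45 arrays in 1 fit, identical probe sets counted once, only the groups compared, and each array left out.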

Additional observations from a re-analysis of the deposited data

Results flagged for a closer look

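The difference between Ta and C pointed opposite ways in F4 and F8 for OsTIP1;1 and OsTIP2;2, with every pool of Ta on one side of every pool of C. The genes were flagged by this separation, and the share of all probe sets that show it was not counted. Their patterns ran together (r = 0.71), so they are not separate observations. OsTIP2;2 differed by -0.40 in F4, all Ta pools lower, and by 0.17 in F8, all Ta pools higher. OsTIP1;1 differed by -0.34 in F4, all Ta pools lower, and by 0.17 in F8, all Ta pools higher. The change between the generations was tested in limma: it was 0.51 for OsTIP1;1 (SE 0.12, adjusted p = 0.0557) and 0.56 for OsTIP2;2 (SE 0.15, adjusted p = 0.129), neither past the threshold. For OsTIP1;1 it passed under quantile normalisation (0.54, adjusted p = 0.037), the filter on low values (0.0324), trended robust variances (0.0275), all 45 arrays in 1 fit (0.0281) and identical probe sets counted once (0.0489), and without replicate 3 of C (0.0446) or of Ta (0.0479) in F6.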

How the results depend on the processing

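No difference of a TIP gene changed sign with a call on either side. The fall of OsTIP2;1 under salt passed in each line under all 27 alternatives, from -2.02 to -1.87 in Ta, -2.33 to -2.12 in NSb and -1.67 to -1.53 in C (adjusted p up to 0.00107), and its fold in C stayed at 3 or more in 25 of 27. Of 4 TIP genes called for salt in any line, the SD filter left 2 and leaving out 1 array 2 to 4; OsTIP4;1 in Ta was lost in 6 of 27 alternatives and OsTIP1;2 in Ta in 7 of 26. Line calls under salt numbered 0, but 1 (OsTIP4;1) with all 45 arrays in 1 fit, and 0 to 1 leaving out 1 array. The 2 calls in F4 became 0 with the SD filter, 0 with a replicate block and 0 with only the groups compared, and 0 to 2 leaving out 1 array. In F8 the 0 calls became 1 (OsTIP1;1, Ta against NSb) with the filter on low values, with trended robust variances and with all 45 arrays in 1 fit. The 2 genes called over the generations became 0 with the SD filter, and 1 or 2 leaving out 1 array (OsTIP1;1 in each). The 1 call among lines with salt history became 0 with the SD filter, and 0 to 1 leaving out 1 array. With all 45 arrays in 1 fit the count was still 1, but of another gene: OsTIP4;1 was lost (adjusted p = 0.157) and OsTIP1;2 called for Ta against C (0.0296) and against NSb (0.0338). The SD filter leaves most TIP genes untested; the cause of the other losses was not tested. With the replicate block, OsTIP1;2 in Ta (adjusted p = 0.0523) and OsTIP2;2 in NSb (0.0673) were also lost under salt; all probe sets called for NSb against C in F4 numbered 194 with the block and 584 without it.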
